A study of Homo sapiens with 8 samples.

Results

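Cells of the human glioblastoma line LN229-TAZ(4SA) that had spent 7 h with AF at 1 µM and no glucose were compared with cells of the same line kept in regular culture, with glucose and no AF, for the same time. The 4 libraries, 2 a side, were the columns of the deposited table headed for these groups, out of 8 in the series. The other 4 libraries are the same groups at 1 h and are used only to show where the 7 h state differs. LN229 is an established line, and every group carries the TAZ(4SA) construct, so cells without it were not measured. TAZ is the protein of WWTR1 and carries Hippo signals to transcription, and reads of the construct cannot be told from those of the cell's own gene. AF is given only by its abbreviation. The series is about inhibition of thioredoxin reductase 1 in glucose-starved cells and disulfidptosis, a form of death described for such cells. AF and the removal of glucose were applied together, so their effects cannot be told apart.

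Thioredoxin reductase 1 passes electrons from NADPH to thioredoxin, which keeps protein thiols reduced, and glucose feeds the pentose phosphate pathway that renews NADPH. Damaged thiols and misfolded proteins are read by separate sensors. HSF1 switches on chaperone genes, NRF2 (the product of NFE2L2) switches on antioxidant genes, and ATF4 switches on genes of amino acid supply when initiation factor eIF2 is phosphorylated. TXNIP, which binds thioredoxin and restrains glucose uptake, is a well-known glucose-responsive gene.

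Levels are CPM, the reads of a gene scaled to the size of its library, as deposited. A log2 fold change above 0 means a higher level in treated cells at 7 h, and its standard error is given as SE. The libraries of each group, called A and B without order, held between 27731776 and 45811965 reads in listed genes. Nothing in the labels ties the libraries to separate cultures. The p-values therefore cover no more than the scatter of these libraries, possibly technical in origin. The libraries of a pair differed by more than counting error, at 2.79 to 3.62 times the chi-square that counting alone gives, and each was counted as a sample.

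The 7 h state covered most of the transcriptome. In limma, 10630 of the 13028 genes tested (81.6%) passed an adjusted p of 0.05. Of these, 5280 (40.5% of the genes tested) were higher and 5350 (41.1%) lower in treated cells. At least 2-fold changes numbered 1381 higher (10.6%) and 1494 lower (11.5%). Beyond 4-fold 388 genes were higher and 184 lower, an imbalance that turned with the scaling, to 270 and 347 with the total of the listed genes and 234 and 463 with ribosomal protein genes held level. As deposited, 50 genes were at least 16-fold higher. Genes of high level leaned upward, but level here is the mean of the 4 libraries at 7 h, treated ones included. Genes such as HSPA6 and HMOX1 entered the top class only through their rise, which tilts that class upward. Among 278 genes with a mean of 500 CPM or more, 66.2% were higher and 26.6% lower, with a median log2 fold change of 0.36. That median is smaller than the 0.45 by which holding ribosomal protein genes level lowers the changes. Among 5196 genes between 20 and 100 CPM, 39.2% were higher and 46.8% lower, with a median of -0.06.

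How many genes count as higher or lower rested on the scaling between libraries. The deposited CPM rest on library sizes that were 0.838 and 0.846 times the reads in listed genes for the treated libraries and 1.05 times for both regular ones. Dividing by the total of the listed genes instead lowered the log2 fold changes by a median of 0.32, and 3144 genes were then higher and 7581 lower. Holding the cytosolic ribosomal protein genes level lowered them by 0.45 and gave 2300 higher and 8314 lower. Equalizing the median level of the 13 mitochondrially encoded genes between libraries raised them by 0.45 and gave 8113 higher and 2637 lower. That setting does not hold those genes level, because different genes sit at the median in the treated and regular libraries, and their median change was 0.01 as deposited and 0.46 under it. The genes at least 2-fold higher ran from 765 to 2820 and those lower from 572 to 3162 over the scalings. Median of ratios and upper quartile scaling moved the log2 fold changes by a median of 0.02. Quantile scaling had as small a median shift but lowered the changes of abundant genes most. It lowered 21 of the 162 genes named in the text by over 1.5-fold, taking HSP90AA1 from 3.18 to 1.68, HMOX1 from 11 to 9.72, DNAJB1 from 6.30 to 5.10, HSPA8 from 2.06 to 1.04 and ACTB from -1.23 to -2.02. Over the 7 scalings, 6031 genes (46.3%) had a log2 fold change on both sides of 0, and 3415 (26.2%) over the 6 without the mitochondrial setting. The large changes were little affected in direction, which follows mostly from their size. Apart from quantile scaling, the scalings moved nearly all genes together, by a median of 0.45 at most. All 388 genes at least 4-fold higher and all 184 at least 4-fold lower passed in the same direction under each of the 7 scalings, as did 1374 of the 1381 genes at least 2-fold higher and 1482 of the 1494 at least 2-fold lower. Fewer kept their size. By the log2 fold change alone, with no adjusted p required, 764 genes were at least 2-fold higher and 573 at least 2-fold lower under each of the 7 scalings. Small changes of whole families, by contrast, are given below with their range over these scalings.

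**Figure D1:**
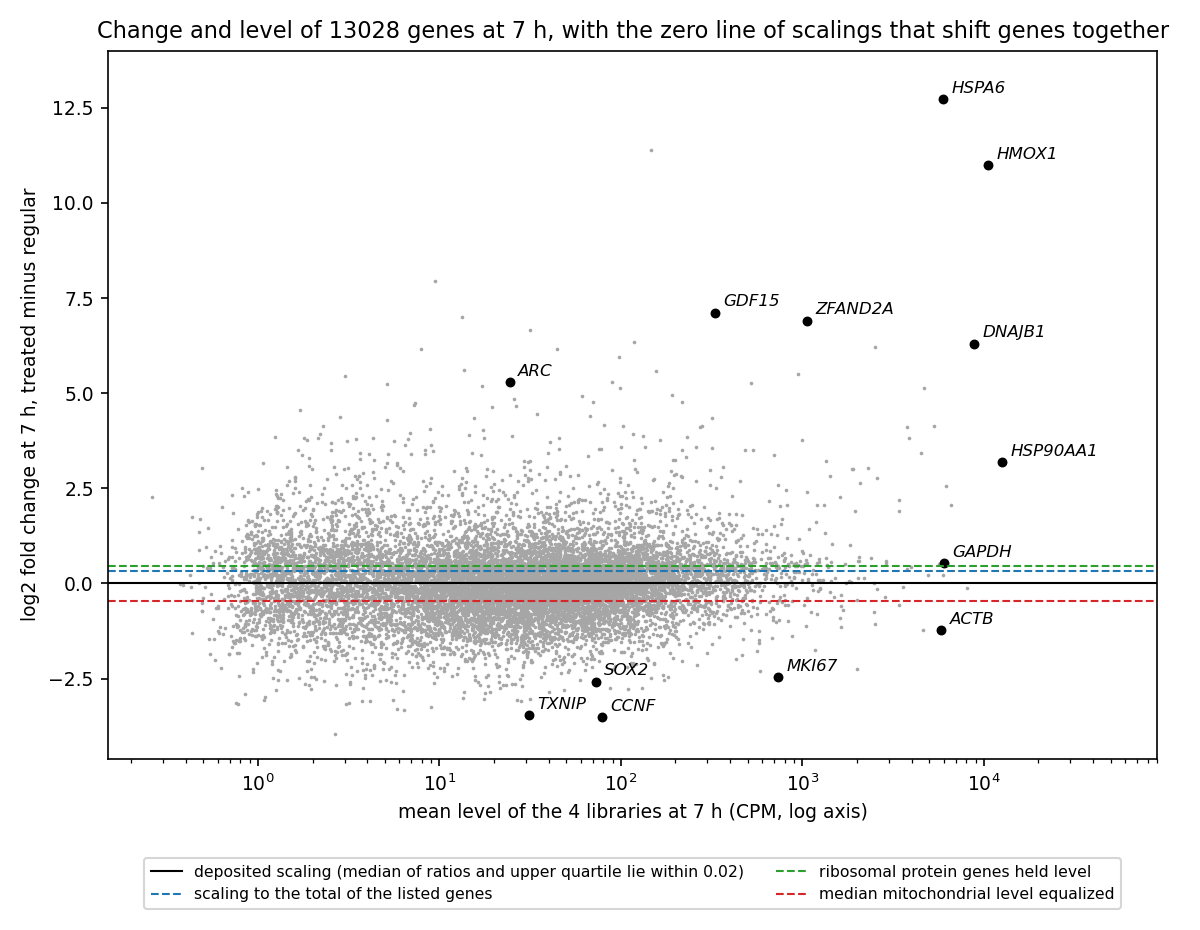
Mean level of the 4 libraries at 7 h (CPM, log axis) against the log2 fold change, treated minus regular, for every gene tested (points), with 13 genes named. Horizontal lines mark where no change would lie under scalings that shift genes together (quantile scaling has no such line), between -0.45 and 0.45, a band that holds many of the genes but none of the named stress genes.

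The reads of treated cells were concentrated in few genes. The 50 genes that were at least 16-fold higher took 7.79% and 7.76% of the reads in the treated libraries, against 0.190% in each regular library. The 10 largest gains in CPM, led by HMOX1, HSP90AA1, DNAJB1 and HSPA6, took 10.9% and 10.8% in treated cells and 0.967% and 0.957% in regular culture. Most of these genes, HSPH1, HSP90AB1, HSPA8, HSPD1 and SERPINH1 among them, encode chaperones or co-chaperones. The 10 largest losses, among them the actins ACTB and ACTG1, the matrix glycoprotein gene THBS1, the non-muscle myosin gene MYH9 and the proliferation marker MKI67, went from 3.82% and 3.73% of the reads to 1.38% and 1.33%. A share of reads also grows with transcript length.

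**Figure D2:**
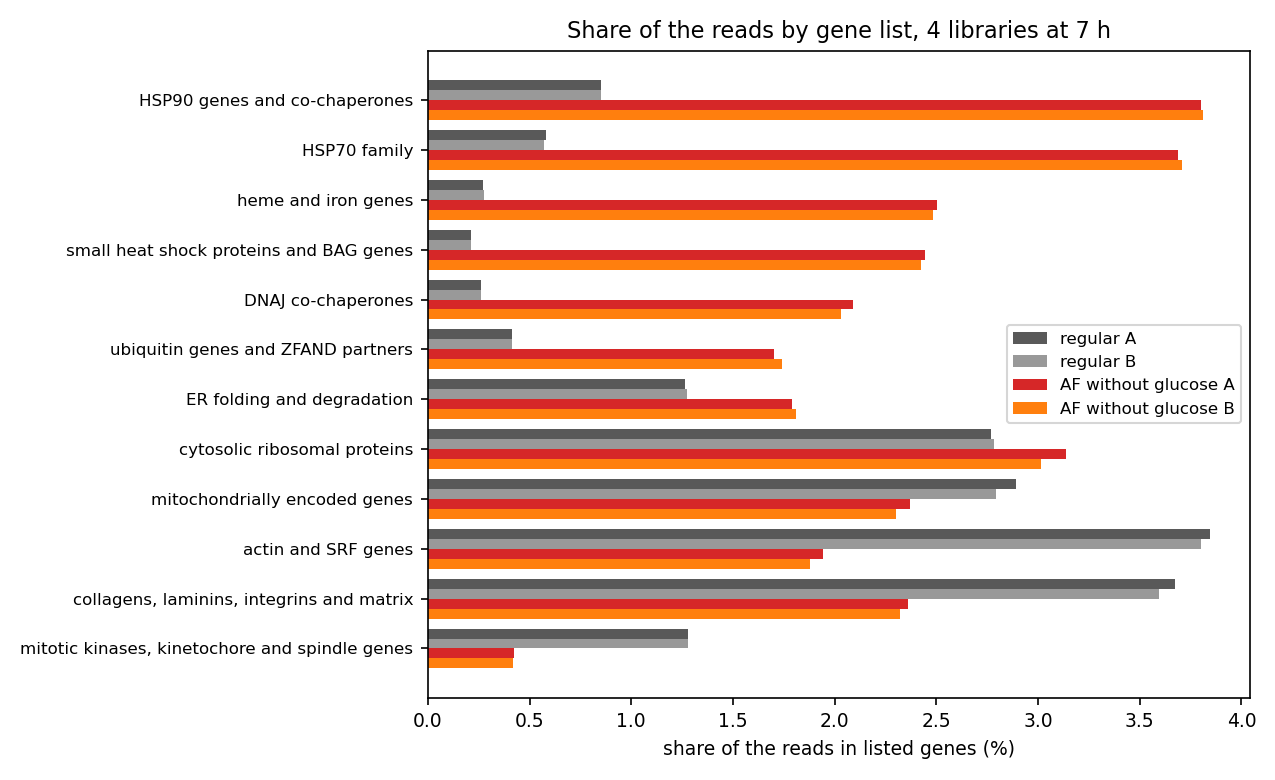
Share of the reads in listed genes (%, from 0) taken by 12 gene lists in each of the 4 libraries at 7 h (bars). HSP90 genes and co-chaperones rose from 0.853% and 0.852% to 3.80% and 3.81%, and actin and SRF genes went from 3.85% and 3.80% to 1.94% and 1.88%.

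Chaperone genes made up most of the largest gains in CPM, although HMOX1, which does not encode a chaperone, led them. HSPA6, an HSP70 gene with hardly any basal expression, stood at 1.77 and 1.63 CPM in regular culture and at 11991 and 11791 CPM in treated cells. The groups were far apart (log2 fold change 12.73, SE 0.09; limma adjusted p = 3.84e-26), although reads may be shared with the near-identical HSPA7. HSP90AA1, the inducible cytosolic HSP90, was abundant in regular culture, at 2508 and 2502 CPM, and reached 22860 and 22698 CPM (3.18, SE 0.03; limma adjusted p = 9.9e-25). DNAJB1, an HSP40 partner of HSP70, went from 225 and 215 CPM to 17883 and 16910 CPM. BAG3, which links HSP70 to selective autophagy, went from 65.6 and 66.9 CPM to 5036 and 4862 CPM. In each of these genes the treated libraries lay close together and above both regular ones.

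The chaperone families did not rise evenly. Of 11 measured HSP70 family genes 10 rose and none fell (median 2.20; 1.21 to 2.65 over the 7 scalings). Of 14 small heat shock protein and BAG genes 11 rose and 2 fell (median 2.38; 1.93 to 2.83), with BAG5 at -1.19. Of 19 HSP90 genes and co-chaperones 16 rose and 2 fell (median 1.31; 0.86 to 1.76), led by CHORDC1 (3.52) and FKBP4 (3.23). The 36 DNAJ genes split, with 22 higher and 11 lower (median 0.45; -0.00 to 0.90). Of the 36, 2 passed the filter on low values only with libraries of treated cells. DNAJB4 rose by 4.78 and DNAJB6 by 3.52, while DNAJC27 and DNAJC14 fell by 1.39 and 1.20. Of 13 subunits of the CCT chaperonin and prefoldin, which fold actin and tubulin, 12 rose and 1 fell (median 0.71; 0.26 to 1.16), with CCT4 at 2.05 and TCP1 at 1.79. The median over all tested genes was -0.01, and 40.5% of them were higher and 41.1% lower. These shares are the background for the counts of every list given here and below. HSF1 itself stood at 80.1 and 77.9 CPM in regular culture and at 94.3 and 101 CPM in treated cells, a log2 fold change of 0.30 that turned negative under 2 scalings.

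The promoters of HSPA6 and CHORDC1 are shown because they hold a heat shock element as searched here, which was rare. The element was taken as GAANNTTCNNGAA or TTCNNGAANNTTC on either strand, within 250 bases before to 50 after the gene start. RefSeq promoters (GRCh38.p14) were matched for 10451 tested genes, and 31 of them (0.297%) held it. Among genes at least 4-fold higher at 7 h it was in 8 of 295 (2.71%), namely HSPA6, SERPINH1, DNAJB6, CHORDC1, DNAJA1, ABHD3, FAM149A and HSPA8, the last at the 4-fold border (2.06). Among genes at least 2-fold lower it was in 2 of 1187 (0.168%). The HSPA6 promoter lies at chr1:161524290-161524589 on the plus strand and the CHORDC1 promoter at chr11:90223000-90223299 on the minus strand. Capitals mark the matches, which start 74 bases before the gene start in HSPA6 and 60 before it in CHORDC1, where 3 overlapping matches form an unbroken run.
HSPA6: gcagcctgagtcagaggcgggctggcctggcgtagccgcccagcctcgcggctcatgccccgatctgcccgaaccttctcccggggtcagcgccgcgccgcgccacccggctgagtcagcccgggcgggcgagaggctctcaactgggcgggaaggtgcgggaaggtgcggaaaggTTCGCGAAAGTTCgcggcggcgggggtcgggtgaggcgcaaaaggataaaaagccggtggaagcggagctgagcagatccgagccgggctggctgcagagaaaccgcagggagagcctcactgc
CHORDC1: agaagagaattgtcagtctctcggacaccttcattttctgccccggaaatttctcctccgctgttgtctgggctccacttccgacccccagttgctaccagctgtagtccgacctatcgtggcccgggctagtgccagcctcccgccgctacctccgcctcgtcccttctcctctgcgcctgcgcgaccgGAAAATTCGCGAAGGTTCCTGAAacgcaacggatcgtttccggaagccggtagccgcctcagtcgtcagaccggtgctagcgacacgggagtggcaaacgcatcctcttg
A match describes the letters only and says nothing of binding.

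Genes of protein disposal rose with the chaperones. ZFAND2A, an arsenite-inducible partner of the proteasome, went from 16.6 and 18.4 CPM to 2096 and 2102 CPM. Of 18 ubiquitin genes and ZFAND partners 17 rose and 1 fell (median 0.61; 0.16 to 1.06), and UBB rose by 3.04. Of 31 proteasome subunits 30 rose and none fell, within a narrow band that ended at 1.28 for PSMD12 (median 0.68; 0.23 to 1.13). The 6 immunoproteasome and activator genes did not move together. 3 of them rose and PSME3 fell by 0.65 (median 0.10; -0.35 to 0.55). Of 32 autophagy receptors and ATG genes 25 rose and 3 fell (median 0.40; -0.05 to 0.85). The largest rises were in the cargo and membrane genes GABARAPL1 (4.40), SQSTM1 (3.01) and MAP1LC3B (2.80), whereas ATG2A and ULK2 fell by 0.69 and 0.62, the latter not called under the mitochondrial setting. Of 26 lysosome and TFEB genes 23 rose and 1 fell (median 0.62; 0.16 to 1.07). GLA, which encodes alpha-galactosidase, rose by 1.47, and MITF fell by 0.47, a call also lost under that setting.

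HMOX1, the haem-degrading enzyme, stood at 9.46 and 11.1 CPM in regular culture and at 21279 and 20869 CPM in treated cells, 2048-fold higher (limma adjusted p = 4.44e-29). The log2 fold change was 11 (SE 0.05). The iron-storage genes FTL and FTH1 rose by 2.78 and 1.91. The list of 20 heme and iron genes was mixed all the same, with 10 higher and 7 lower (median 0.18; -0.27 to 0.63). Such counts lie near the shares over all tested genes, 40.5% higher and 41.1% lower. ABCB10 and the haem exporter FLVCR1 fell by 1.49 and 1.41. TXNRD1, which encodes thioredoxin reductase 1, went from 354 and 347 CPM to 2458 and 2488 CPM (2.82, SE 0.03), while TXNRD3 fell by 1.04 and TXNRD2, the mitochondrial counterpart, by 0.46, a change that the mitochondrial setting took to -0.01. Of 23 thioredoxin and peroxiredoxin genes 15 rose and 5 fell (median 0.41; -0.04 to 0.86), led by the sulfiredoxin gene SRXN1 (3.37).

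Of 28 glutathione and cystine genes 22 rose and 2 fell (median 0.68; 0.22 to 1.12). CTH, which makes cysteine from cystathionine, went from 1.65 and 1.68 CPM to 50.3 and 49.1 CPM (4.86). The cystine importer SLC7A11 went from 40.7 and 43.0 CPM to 389 and 444 CPM (3.31). Of 34 other NRF2 targets 27 rose and 5 fell (median 1.33; 0.88 to 1.78). At least 2-fold rises numbered 21, but only 12 of the 34 stood at least 2-fold above regular culture of 1 h, and between 1 h and 7 h regular culture lost at least 2-fold of 8 of them. Reads of the list made up 0.491% and 0.494% of the regular libraries of 1 h, 0.346% and 0.345% of those of 7 h, and 0.527% and 0.532% of the treated libraries of 7 h. OSGIN1 and MAFF rose by 3.87 and 3.23. NFE2L2 rose by 1.69, and its relative NFE2L1 fell by 0.77. Of 19 genes of the pentose phosphate pathway and NADPH supply 12 rose and 6 fell (median 0.81; 0.36 to 1.26). MTHFD2, ME1 and PGD rose by 2.59, 2.10 and 1.81, and RPIA, of the non-oxidative branch, fell by 0.71. Metallothioneins and zinc transporters went both ways, 5 higher and 5 lower of 11 (median 0.03; -0.43 to 0.47), with MT1E and MT1X at -1.27 and -1.24.

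TXNIP went from 56.7 and 57.1 CPM to 5.29 and 4.98 CPM (-3.46, SE 0.07; limma adjusted p = 2.37e-19). Its relative ARRDC3 rose by 2.39. In the list of 7 arrestin and MondoA genes 2 rose and 4 fell (median -0.15; -0.60 to 0.30). Between 1 h and 7 h, regular culture gained at least 2-fold in 2 of the 7. Treated cells at 7 h were below regular culture of 1 h in 3 of them. Of 34 genes of glucose uptake and glycolysis 21 rose and 6 fell (median 0.21; -0.24 to 0.66), and only SLC2A3, a high-affinity glucose transporter (3.08), and PDK4, which restrains pyruvate oxidation (3.04), rose at least 2-fold in that list. Of 22 hypoxia-type genes 14 rose and 7 fell (median 1.13; 0.68 to 1.58). NDRG1 and VEGFA rose by 2.42 and 2.41, but HILPDA, a lipid droplet gene, fell by 3.30. The TXNIP promoter at chr1:145996530-145996829 on the minus strand is shown because it holds a carbohydrate response element, searched as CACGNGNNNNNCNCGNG on either strand and found in 83 (0.794%) of the 10451 promoters. It was in 10 of the 1187 promoters of genes at least 2-fold lower (0.842%), in 9 of the 1049 at least 2-fold higher (0.858%) and in 3 of the 295 at least 4-fold higher (1.02%). Capitals mark the match, which starts 88 bases before the gene start.
TXNIP: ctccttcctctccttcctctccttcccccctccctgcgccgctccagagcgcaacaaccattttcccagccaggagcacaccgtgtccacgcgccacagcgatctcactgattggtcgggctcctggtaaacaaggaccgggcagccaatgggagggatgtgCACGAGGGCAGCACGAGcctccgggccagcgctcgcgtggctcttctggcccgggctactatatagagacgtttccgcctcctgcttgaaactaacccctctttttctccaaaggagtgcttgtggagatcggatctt

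Genes listed here around ATF4, amino acid supply and the ER mostly rose, but not throughout. Whether ATF4 acted on them was not tested. ATF3, a stress-induced bZIP factor, went from 6.24 and 6.44 CPM to 313 and 301 CPM (5.59, SE 0.04), and had stood at 218 and 204 CPM in regular culture at 1 h. TRIB3, which restrains ATF4 and CHOP, went from 25.99 and 26.7 CPM to 1023 and 998 CPM (5.26). DDIT3, which encodes CHOP, rose by 4.34 and ATF4 itself by 1.31. Of 26 stress bZIP factors and eIF2 feedback genes 18 rose and 5 fell (median 1.80; 1.35 to 2.25). At least 2-fold rises numbered 17, but 10 of the 26 stood at least 2-fold above regular culture of 1 h, and regular culture lost at least 2-fold of 6 of them after 1 h. The ones that fell included EIF2AK4, the kinase GCN2 (-1.37), and ATF5 (-0.92). Of 16 genes of serine, asparagine, proline and folate synthesis 13 rose and 3 fell (median 1.42; 0.97 to 1.87), with ASNS at 2.70. Of 19 amino acid transporters 13 rose and 4 fell (median 0.69; 0.23 to 1.14), with SLC3A2, the partner of SLC7A11, at 2.05 and SLC7A6 at -1.10. Of 33 ER folding and degradation genes 27 rose and 3 fell (median 0.50; 0.04 to 0.95). HERPUD1, ERN1 and DNAJB9 rose by 3.58, 3.54 and 2.87, and EDEM3 fell by 0.99.

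The aminoacyl-tRNA synthetases, which charge tRNAs, differed by compartment. Of 21 cytosolic members 17 rose and 3 fell (median 0.68; 0.23 to 1.13), and of 16 mitochondrial members 5 rose and 11 fell (median -0.67; -1.12 to -0.22). The medians kept opposite signs under each of the 7 scalings. GARS1, which serves both compartments, rose by 2.46 and WARS1 by 2.31. Among mitochondrial members MARS2 went from 15.01 and 15.1 CPM to 5.59 and 5.30 CPM (-1.46), TARS2 fell by 1.12, and RARS2 rose by 1.04.

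CHAC1, an ATF4 and CHOP target that cleaves glutathione, rose from 3.01 and 2.98 CPM to 65.2 and 67.3 CPM (4.44, SE 0.06). Its promoter at chr15:40953221-40953520 on the plus strand is shown for its amino acid response element, searched as TGATGNAA on either strand. That element was in 179 of 10451 promoters (1.71%), in 13 of 295 of genes at least 4-fold higher (4.41%) and in 15 of 1187 of genes at least 2-fold lower (1.26%). The antioxidant response element TGACNNNGC was common, in 1583 promoters (15.1%), in 61 of those at least 4-fold higher (20.7%) and in 168 of those at least 2-fold lower (14.2%). Capitals mark the CHAC1 match, which starts 209 bases before the gene start and reads on the opposite strand.
CHAC1: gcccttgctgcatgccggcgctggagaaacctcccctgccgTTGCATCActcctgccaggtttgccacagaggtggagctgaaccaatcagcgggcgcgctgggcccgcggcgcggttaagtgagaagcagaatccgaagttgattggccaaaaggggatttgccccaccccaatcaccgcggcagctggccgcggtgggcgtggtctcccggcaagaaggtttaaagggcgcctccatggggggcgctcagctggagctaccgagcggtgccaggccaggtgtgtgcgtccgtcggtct

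GDF15, a secreted stress cytokine, went from 4.57 and 4.74 CPM to 646 and 662 CPM (7.12, SE 0.06; limma adjusted p = 3.66e-25). Of 24 secreted growth factors 18 rose and 5 fell (median 0.37; -0.08 to 0.82). After 1 h, regular culture lost at least 2-fold of 7 of the 24 and gained at least 2-fold of 3. Treated cells at 7 h stood at least 2-fold above regular culture of 1 h in 9 and below it in 10. PGF and INHBA rose by 4.65 and 2.94, and FGF5 and PDGFA fell by 2.61 and 1.19. PTGS2, the inducible cyclooxygenase, went from 3.09 and 3.07 CPM to 189 and 197 CPM (5.95). It belongs to a list of 26 NF-kB feedback, chemokine and cytokine genes in which 11 rose and 13 fell (median -0.16; -0.61 to 0.29), with CCL2 and NFKBIA at -1.57 and -1.32. Regular culture lost at least 2-fold of 18 of the 26 after 1 h, and in treated cells 2 stood at least 2-fold above its 1 h level. In the BCL2 family and death receptors 13 of 26 rose and 10 fell (median 0.09; -0.36 to 0.54). BBC3 and BCL2L11, which promote death, rose by 2.91 and 2.47, the death receptor TNFRSF10B rose by 2.04, while BCL2L1, which opposes death, fell by 1.42 and CASP2 and BAK1, which promote it, fell by 1.08 and 0.98. Growth arrest and p53-type genes were split as well, 12 higher and 10 lower of 23 (median 0.28; -0.18 to 0.73), with SESN2 at 4.95, SESN1 at -1.69 and CDKN1B at -1.25. Regular culture lost at least 2-fold of 6 of the 23 after 1 h, and in treated cells 3 stood at least 2-fold above its 1 h level. Over all tested genes 40.5% were higher and 41.1% lower, so splits like these do not set a list apart.

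Immediate early genes, which respond within minutes to growth factors and stress, need both arms to be read. FOSB went from 1.23 and 1.15 CPM in regular culture at 7 h to 92.1 and 84.4 CPM in treated cells (6.15, SE 0.06). In regular culture at 1 h, however, it stood at 357 and 302 CPM, above the treated cells of either time. ARC was likewise highest in regular culture at 1 h, with 73.8 and 67.7 CPM in regular culture at 1 h, 1.13 and 1.21 at 7 h, while the treated 7 h libraries held 49.4 and 45.6. Of 7 AP-1 factors 6 rose at 7 h and none fell (median 1.86; 1.40 to 2.30), and of 23 EGR, NR4A and other immediate early genes 20 rose and 3 fell (median 1.87; 1.42 to 2.32). Between 1 h and 7 h, regular culture itself lost at least 2-fold in all 7 AP-1 factors and in 21 of the 23 others. Treated cells at 7 h were below regular culture at 1 h in 6 of the 7 and in 19 of the 23. IER5, an exception, went from 41.4 and 40.9 CPM to 1863 and 1847 CPM (5.49). FOS rose by 6.33 and DUSP2, a nuclear phosphatase of MAP kinases, by 6.66. Of 17 dual specificity phosphatases 8 rose and 4 fell (median 0.16; -0.29 to 0.61), with DUSP7 at -2.31, and of 13 KLF factors 7 rose and 5 fell (median 0.28; -0.18 to 0.73), with KLF5 at 2.20 and KLF9 at -1.04. Regular culture lost at least 2-fold of 6 of these phosphatases and of 7 of the KLF factors after 1 h. In treated cells 2 phosphatases and 1 KLF factor stood at least 2-fold above its 1 h level.

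The same reading was applied to every gene at least 2-fold higher at 7 h. Of the 1381, 804 stood at least 2-fold above regular culture at 1 h as well, 322 had fallen at least 2-fold in regular culture between 1 h and 7 h, and 142 were below the level of regular culture at 1 h. Of the 1494 genes at least 2-fold lower, 899 were at least 2-fold below regular culture at 1 h and 93 had risen at least 2-fold in regular culture. These counts use group means with no test.

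**Figure D3:**
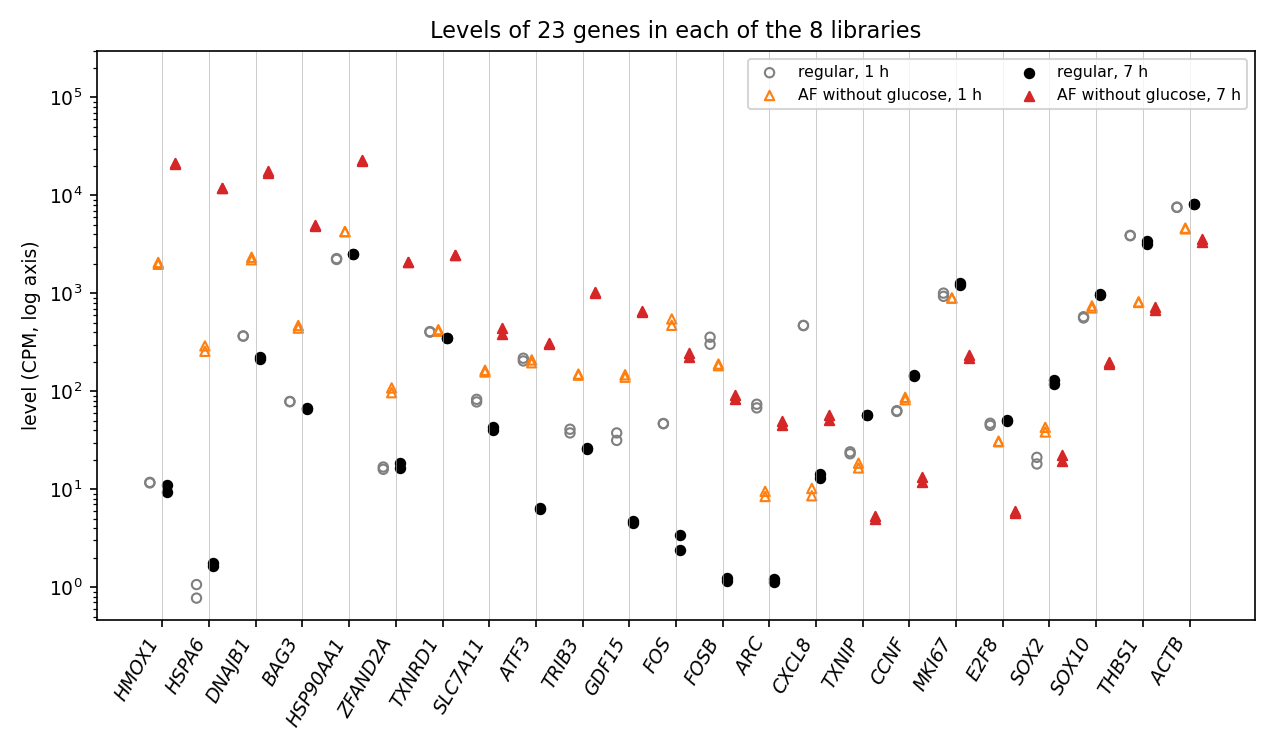
Level (CPM, log axis) of 23 genes in each of the 8 libraries, by group (symbols, 2 libraries a group). The treated 7 h libraries stand above all others for HMOX1, HSPA6 and HSP90AA1, and below the regular 1 h libraries for FOSB and ARC.

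Genes of cell division fell together. In these bulk samples fewer cells of a kind and less RNA per cell cannot be told apart. CCNF, which encodes cyclin F, went from 146 and 142 CPM to 13.3 and 12 CPM, 11.4-fold lower (-3.51, SE 0.05; limma adjusted p = 8.78e-22). Of 44 mitotic kinase, kinetochore and spindle genes none rose and 43 fell, 31 of them at least 2-fold (median -1.44; -1.90 to -0.99). Their median at 1 h was -0.03, and for 43 the 7 h change was lower than the 1 h change by the test of that difference. ESPL1, or separase, went from 191 and 190 CPM to 28.9 and 27.3 CPM (-2.76), MKI67 from 1267 and 1214 CPM to 236 and 216 CPM (-2.46), and the kinase gene AURKA fell by 2.41. Of 27 cyclins and CDKs 9 rose and 17 fell (median -0.95; -1.41 to -0.50). CDC25A and CCNA2 were at -2.35 and -2.26, while CCNG2 rose by 0.93.

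Replication and repair genes fell less. Of 43 replication and E2F genes 9 rose and 30 fell (median -0.40; -0.86 to 0.04). The E2F factors parted. E2F8 went from 50.1 and 51.0 CPM to 5.77 and 6.03 CPM (-3.09), E2F2 fell by 2.67, and E2F7, close kin of E2F8, went from 64.3 and 59.5 CPM up to 295 and 303 CPM (2.27). Of 40 repair and checkpoint genes 5 rose and 31 fell (median -0.59; -1.05 to -0.14), with FANCB and MSH6 at -1.60 and -1.46. Of 18 histone genes 5 rose and 9 fell (median -0.28; -0.73 to 0.17), with the centromeric CENPA at -1.68.

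Cytoskeletal and matrix genes went both ways, and each list median given for them changed sign over the scalings. ACTB went from 8204 and 8126 CPM to 3575 and 3369 CPM (-1.23, SE 0.03), and THBS1 from 3414 and 3223 CPM to 725 and 671 CPM (-2.25). Of 36 actin and SRF genes 5 rose, none of them 2-fold, and 24 fell (median -0.42; -0.88 to 0.03). The SRF co-activators MRTFB and MRTFA, which sense free actin, fell by 2.18 and 1.31. Of 39 YAP/TAZ targets and Hippo genes 10 rose and 26 fell (median -0.27; -0.73 to 0.18). As deposited, the median of this list was already -0.27 at 1 h, and that of the actin and SRF genes was -0.25. CCN2 stood at 90.2 and 87.8 CPM in regular culture and 38.7 and 38.5 in treated cells (-1.20). ARHGEF17 and NF2 fell by 1.97 and 1.56, whereas ANKRD1 rose by 3.43 and LATS2, a Hippo kinase, by 1.89. Both of the latter had been lower in treated cells at 1 h. Regular culture lost at least 2-fold of 10 of the 39 after 1 h, and in treated cells 1 of the 39 stood at least 2-fold above its 1 h level. WWTR1 itself differed by 0.30, which turned negative under 2 scalings. Of 45 collagen, laminin, integrin and other matrix genes 13 rose and 27 fell (median -0.17; -0.63 to 0.28), with ITGA2 and FBN1 at -2.05 and -1.71 and LAMA5 at 2.13. Of 15 tubulins 8 rose and 6 fell (median 0.43; -0.03 to 0.88). TUBE1 rose by 2.32 and TUBB4B, among the more abundant, fell by 1.45.

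The genes of protein synthesis differed by step. Of 73 cytosolic ribosomal proteins 70 rose and none fell, none of them 2-fold (median 0.47; 0.01 to 0.92), but the total of the listed genes gave a median of 0.15. With these genes held level, which sets their median near 0 by construction, 13 were higher and 11 lower. Of 37 ribosome biogenesis and RNA polymerase I genes 4 rose and 27 fell (median -0.50; -0.95 to -0.05), with RRS1 and POLR1A at -1.57 and -1.25 and NOP58 at 1.13. This list rose in regular culture itself between 1 h and 7 h, by a median of 0.36 in log2. Against regular culture at 1 h, treated cells at 7 h differed by a median of 0.05, with 16 of the 37 genes below it. Of 40 translation initiation factors 23 rose and 13 fell (median 0.23; -0.22 to 0.68). EIF5 rose by 1.70, and the inhibitors EIF4EBP1 and EIF4EBP2 went apart, at 1.48 and -1.55. Of 35 splicing regulators 12 rose and 18 fell (median -0.10; -0.55 to 0.35), and CLK1, a kinase of splicing factors, went from 48.2 and 50.6 CPM to 597 and 570 CPM (3.56). Of 33 genes of cholesterol and fatty acid synthesis 17 rose and 10 fell (median 0.09; -0.36 to 0.54), with HSD17B7 at 1.55. Regular culture lost at least 2-fold of 5 of the 33 after 1 h. In treated cells 29 of the 33 were below regular culture of 1 h, and none stood at least 2-fold above it.

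Mitochondrial genes showed no direction common to all their lists. Nuclear oxidative phosphorylation genes leaned upward as deposited. The other lists split near the shares over all tested genes, 40.5% higher and 41.1% lower. Of 74 mitochondrial ribosomal proteins 26 rose and 30 fell (median -0.02; -0.47 to 0.43), and MRPL18 (2.65) stood apart. Of 55 nuclear oxidative phosphorylation genes 40 rose and 7 fell, none 2-fold (median 0.26; -0.20 to 0.71). Of 34 import and quality control genes 13 rose and 12 fell (median -0.03; -0.48 to 0.42), and the chaperones HSPE1, HSPD1 and HSPA9 led at 3.51, 3.44 and 2.64. Among the 13 mitochondrially encoded protein genes 5 rose and 6 fell (median 0.01; -0.80 to 0.46). COX3 went from 3148 and 3087 CPM to 1847 and 1835 CPM (-0.76) and ND2 fell by 0.79. The mitochondrial ribosomal RNA RNR2, chosen after its values were seen, went from 1464 and 1414 CPM to 5510 and 5216 CPM (1.90).

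**Figure D4:**
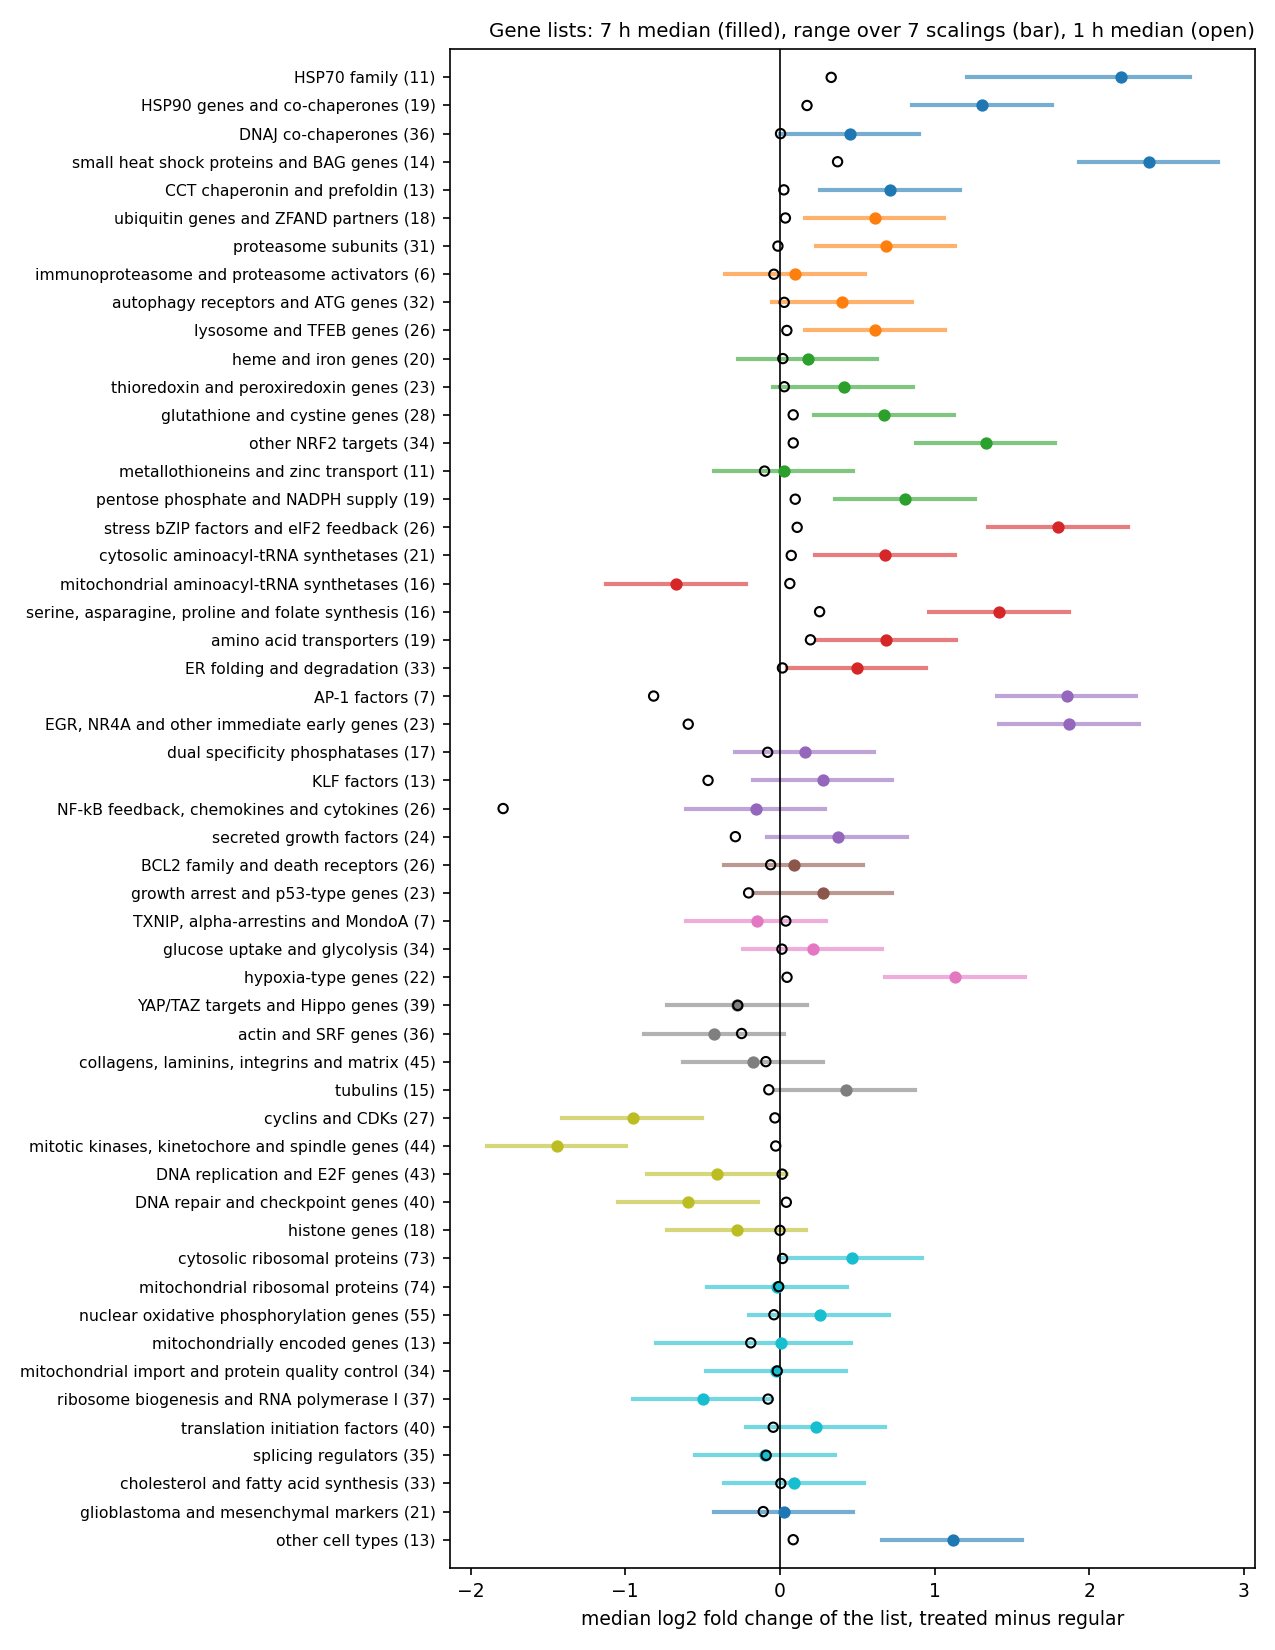
Median log2 fold change, treated minus regular, of the tested members of 53 gene lists (number of members in brackets) at 7 h (filled points) and 1 h (open points), with the range of the 7 h median over 7 scalings (bars). The medians of 20 lists are above 0 and of 5 lists below 0 under each scaling, and those of 28 lists change sign. Among the 20 are the ribosomal proteins, whose own scaling sets their median near 0.

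Markers of the glioma lineage went both ways. SOX2, a stem cell factor, went from 120 and 130 CPM to 22.6 and 19.2 CPM (-2.58, SE 0.08), although it was at 21.2 and 18.1 CPM in regular culture at 1 h. SOX10, chosen after its values were seen, went from 988 and 952 CPM to 199 and 192 CPM (-2.31, SE 0.03). Of 21 glioblastoma and mesenchymal markers 9 rose and 9 fell (median 0.02; -0.43 to 0.47), with CAV1 at -1.12. GFAP, the defining astrocyte marker, was near absent at means of 0.495 CPM in regular and 1.14 CPM in treated cells. Of 32 markers of other cell types, 13 were in the table. The 13 rose (median 1.12; 0.66 to 1.57), but 3 of them, RBFOX3 among these, passed the filter on low values only with libraries of treated cells, so the count is a description and supports nothing. Their summed level was 251 and 243 CPM in regular culture and 521 and 534 CPM in treated cells, against 393 and 365 CPM in regular culture at 1 h, and 3 of the 13 stood at least 2-fold above that 1 h level. The epithelial keratin gene KRT18 had means of 50.4 CPM in regular and 117 CPM in treated cells, SYT1, of synaptic vesicles, had 31.7 and 86.0 CPM, and RBFOX3, a neuronal splicing factor, rose from 0.438 and 0.574 CPM to 25.2 and 28.7 CPM (5.60). Their part in the other results was not tested.

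Genes with few exons fell more often than others at 7 h. Coding transcripts of GENCODE release 29 gave an exon number for 12007 tested genes. The 249 genes with a single exon had a median log2 fold change of -0.59, and 34.5% of them fell at least 2-fold. The 542 genes with 2 exons had a median of -0.47, and 29.7% fell at least 2-fold. The share was 13.98% for 3 to 5 exons, 9.19% for 6 to 10, 8.54% for 11 to 20 and 7.15% for more than 20. The share that rose at least 2-fold was between 9.83% and 12.7% in every class. At 1 h the medians lay between -0.06 and 0.01. Against genes with 3 or more exons, the difference of the median of genes with 1 or 2 was -0.52 on the deposited scale. It lay between -0.52 and -0.51 under the 7 scalings and between -0.52 and -0.50 in the 4 pairs of a treated with a regular library. Apart from quantile scaling, the scalings move nearly all genes together and so leave a difference of medians almost unchanged. Their narrow range is therefore no check of the gap, and the 4 pairs share libraries. This gap is a description without a test.

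The gap was also present within classes of transcript length and of level, except among the most abundant genes. For transcripts of 1000 to 2000 bases, 30.3% of genes with 1 or 2 exons and 6.62% of those with more fell at least 2-fold. For 3000 to 5000 bases the shares were 38.8% and 11.3%. Between 20 and 100 CPM they were 31.6% and 9.02%. Among genes at 500 CPM or more, none of 20 with 1 or 2 exons fell 2-fold, against 6.61% of 257 with more. Level is the mean of the 4 libraries at 7 h, so a gene can enter this class by rising. Single-exon genes were not uniform. HSPA6 and IER5, both of 1 exon, were among the largest rises, and SOX2 and RRS1, also of 1 exon, among the falls.

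**Figure D5:**
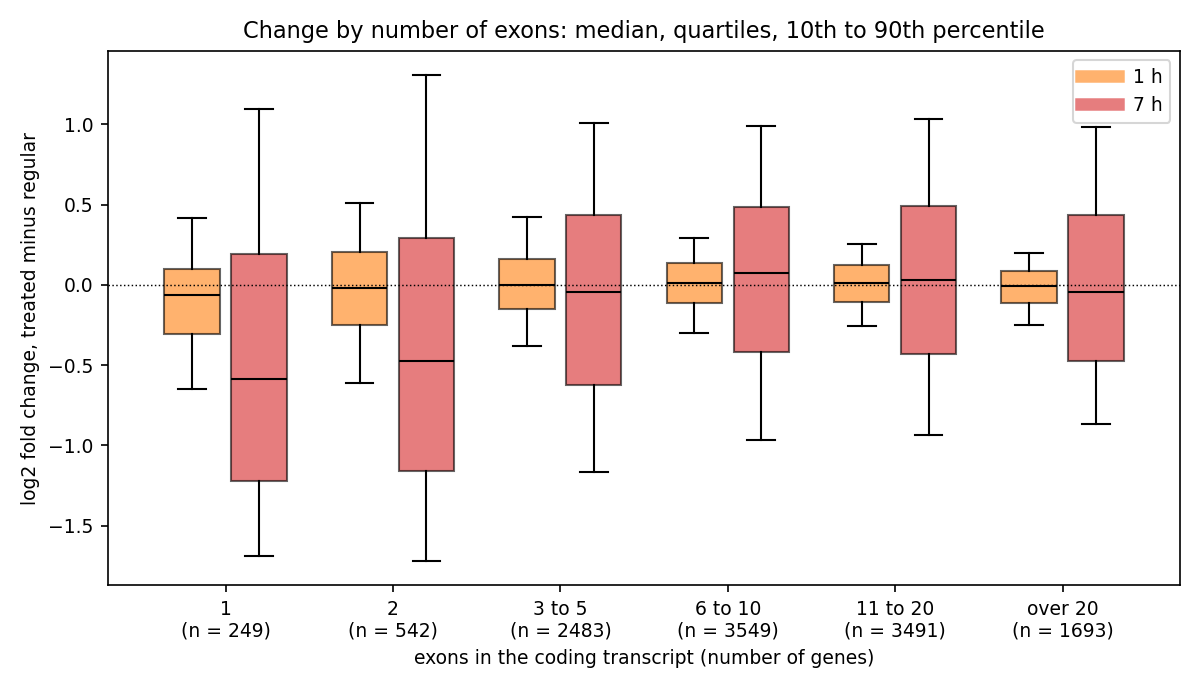
Log2 fold change, treated minus regular, by number of exons in the coding transcript at 1 h and 7 h (boxes: quartiles and median, whiskers: 10th to 90th percentile). The 7 h medians are -0.59 and -0.47 for genes with 1 and 2 exons and lie between -0.05 and 0.07 for the other classes.

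The 7 h state was not the 1 h state enlarged in equal measure. The change at 7 h differed from that at 1 h for 9606 genes (73.7%) by limma's test of the difference. HMOX1 and HSPA6 were already higher at 1 h, by 7.43 and 8.15, and their 7 h changes were larger by 3.57 (SE 0.07) and 4.58 (SE 0.13). TXNIP was at -0.43 at 1 h and at -3.46 at 7 h. CCNF had the opposite sign at 1 h (0.42), and regular culture then held 62.3 and 63.5 CPM. At both times together 1738 genes passed in opposite directions, 77 of them with at least a 2-fold change at each time, of which 69 were lower at 1 h and higher at 7 h. The 2 comparisons use different control libraries.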

How the data were processed

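RNA of 8 libraries was measured by sequencing (SMART-Seq mRNA HT with Nextera XT; strand is not marked, so antisense or overlapping genes may share reads), per the labels' protocols. HISAT2, edgeR and the GRCh38 build are named in the submitters' processing notes. The deposited values are log2 CPM with a prior, made by the authors. The prior (0.0522 CPM, 2 reads in a mean library) was read from the lowest values, and 100% of values lay within 0.1 read of whole reads after its removal. How reads were counted and filtered is not given in the sources used here.

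A gene was tested where 2 or more libraries reached 1 CPM (13028 of 13036), with limma 3.58.1 in R 4.3.3 on the deposited log2 values, with 1 mean per group over all 8 libraries, an intensity trend, and Benjamini-Hochberg adjustment over all genes. Among list members, 2 DNAJ genes and 3 markers of other cell types passed this filter only with libraries of treated cells. So did 1 gene in each of the stress bZIP, secreted growth factor, repair, histone and ribosome biogenesis lists. Recovered reads gave the alternative scalings and the shares of reads. A count of 0 allows up to 3 reads, 0.0626 to 0.129 CPM over the 7 h libraries. The fit was checked on data made with known changes.

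The comparison, the members of the 53 lists and the naming rule were chosen with earlier results of these data known. The rule takes 6 markers, the 15 largest rises and falls among genes that passed, reached 5 CPM and did not overlap, the 10 largest gains and losses in CPM, up to 3 rises and 3 falls of each list, and 11 genes tied to the treatment. The text names 8 genes outside it, chosen after their values were seen: ABHD3, DNAJA1 and FAM149A (heat shock element), GFAP, KRT18 and SYT1 (other cell types), SOX10 and RNR2. Members absent from the table were left out, and some items are not reported here. Alternatives were 6 scalings, a prior of 0.5 CPM, 2 filters, the 7 h libraries alone, no trend, voom weights and leaving out each 7 h library.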

Additional observations from a re-analysis of the deposited data

Results flagged for a closer look

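Changes at 7 h and 1 h differed for 9606 genes by limma's test of the difference. The 7 h change exceeded the 1 h change by 3.57 log2 units for HMOX1, 4.58 for HSPA6, 2.25 for HSP90AA1 and 5.06 for GDF15, and lay below it by -3.03 for TXNIP and -3.93 for CCNF.

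Several genes passed in opposite directions at the 2 times, with at least a 2-fold change at each. Lower at 1 h and higher at 7 h were ANKRD1 (difference 9.38), ARC (8.25), CXCL8 (7.62), NR4A3 (7.25), JUNB (4.30), GADD45A (3.94), KLF5 (3.78), DUSP5 (3.70), LATS2 (3.07) and KLF10 (2.74). CXCL8, a chemokine gene, was at 470.0 and 469.8 CPM in regular culture at 1 h and at 14.3 and 12.9 CPM at 7 h, and at 8.58 and 10.2 and then 50.7 and 57.1 CPM in treated cells. Higher at 1 h and lower at 7 h were SOX2 (-3.63) and CDKN1B (-2.43), which encodes a cyclin-dependent kinase inhibitor.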

How the results depend on the processing

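The counts of higher and lower genes moved with the scaling. With the total of the listed genes 3144 genes were higher. With ribosomal protein genes held level 2300 were higher and 8314 lower, and with the median mitochondrial level equalized 8113 and 2637. Leaving out each 7 h library in turn gave 4923 to 5118 higher, 5036 to 5196 lower and 9054 to 9436 genes whose change differed from 1 h. The other counts were within 1.5 times those reported under all other settings run.

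With ribosomal protein genes held level the log2 fold change was -0.16 for WWTR1 and -0.15 for HSF1, and the total of the listed genes gave -0.021 and -0.015. Holding ribosomal protein genes level turned these list medians negative: DNAJ -0.0013, immunoproteasome -0.35, autophagy -0.051, heme and iron -0.27, thioredoxin -0.042, metallothioneins -0.43, dual specificity phosphatases -0.29, KLF -0.18, growth factors -0.081, BCL2 family -0.36, growth arrest -0.18, glycolysis -0.24, tubulins -0.027, oxidative phosphorylation -0.20, mitochondrially encoded -0.44, initiation factors -0.22, cholesterol -0.36 and glioblastoma markers -0.43. The total of the listed genes did so for immunoproteasome -0.22, heme and iron -0.14, metallothioneins -0.29, dual specificity phosphatases -0.15, KLF -0.033, BCL2 family -0.23, growth arrest -0.036, glycolysis -0.10, oxidative phosphorylation -0.061, mitochondrially encoded -0.31, initiation factors -0.085, cholesterol -0.22 and glioblastoma markers -0.29.

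Equalizing the median mitochondrial level turned medians positive: NF-kB 0.29, arrestins 0.30, YAP/TAZ 0.18, actin 0.025, matrix 0.28, replication 0.045, histones 0.17, mitochondrial ribosomal proteins 0.43, import 0.42 and splicing 0.35. Quantile scaling gave 0.024 for mitochondrial ribosomal proteins, -0.80 for mitochondrially encoded genes and -0.41 for glioblastoma markers. Median of ratios gave 0.0029 and upper quartile 0.0024 for mitochondrial ribosomal proteins. Leaving out 1 library moved the median from -0.052 (without treated A) to 0.069 (without treated B) for mitochondrially encoded genes, with -0.021 without regular B, from -0.00572 (without treated A) to 0.054 (without treated B) for glioblastoma markers, and from -0.041 (without regular A) to 0.00537 (without regular B) for import. Apart from quantile scaling these scalings shift nearly all genes together, so medians near 0 cross it. Without the mitochondrial setting 20 list medians were above 0, 14 below 0 and 19 on both sides. Among the genes named, the mitochondrial setting ended the call of ULK2 (-0.17, limma adjusted p = 0.119), MITF (-0.016, limma adjusted p = 0.853) and TXNRD2 (-0.0095, limma adjusted p = 0.909), and quantile scaling that of WWTR1 (0.07, limma adjusted p = 0.0719).

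No paired analysis was possible because the column headings carry no replicate numbers, and the replicate block was not run. Depth limits genes under 5 CPM most, where 35.2% were higher and 30.2% lower.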
